A study of Brassica napus with 8 samples.

Results

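The probes described here are those that rose clearly in wild-type *Brassica napus* seedlings under *Mamestra brassicae* feeding and rose much less in *MINELESS* seedlings. They were chosen from the log2 ratios themselves. A probe was taken when no more than 1 of the 4 arrays of either genotype was empty for it and when it had a wild-type mean of 0.7 or higher with every wild-type value above 0, and a *MINELESS* mean that lay below 1 and below 0.5 times the wild-type mean. This gave 32 of the 34992 probes on the array, or 32 of the 1747 with enough values to be tested. Since all 8 arrays entered the choice, the responses of these probes and their differences between genotypes are a description, and no test of them is read as support.

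The arrays compared 2 genotypes. *MINELESS* seedlings come from a line in which a barnase gene, driven by a myrosinase promoter, kills the myrosin cells during seed development, and the wild-type is cv. Westar. In both genotypes, seedlings aged 6 to 7 days were caged with 10-day-old larvae that had been raised on the same genotype, and the above-ground tissue was taken after 24 h. Control seedlings were caged without larvae. In separate no-choice feeding experiments, the paper reports that larvae ate less *MINELESS* than wild-type tissue. It names reduced feeding as a possible reason for weaker responses in *MINELESS*. For genes of the jasmonate pathway, the paper also names less myrosinase and fewer products of glucosinolate hydrolysis as a possible reason. Neither reason was tested here. The amount eaten is not given for the arrays, so genotype and amount of feeding cannot be told apart here. Each biological replica pooled 6 pots of challenged or 4 pots of control seedlings, with 4 seedlings in a pot, and 4 replicas of each genotype were hybridized. Every array carried challenged and control RNA of 1 genotype in different dyes, so a value is the log2 of their ratio. It gives no level, and challenged *MINELESS* was never set directly against challenged wild-type seedlings.

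Brassicaceae store glucosinolates apart from myrosinase, the enzyme that hydrolyses them, which is held in the myrosin cells, and chewing brings them together. Larval feeding is also known to switch on jasmonate synthesis and signalling in the plant, which in turn raises genes for tryptophan and indole glucosinolate synthesis and for inducible defence proteins. The probes were designed for *Arabidopsis* genes and can bind several close copies of a gene in *B. napus*. No table used here pairs the probes with genes, so none is given a gene name or a role, and whether the tissue showed its cell type markers was not checked. In whole seedlings, fewer cells of a type and less RNA per cell cannot be told apart.

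The ratios are likely challenged over control. The series describes its comparison in that direction, and the 16 pairs of arrays with opposite dyes correlated positively over the tested probes (r from 0.56 to 0.84), so the deposited ratios had been turned one way. For *MINELESS* replicas 3 and 4, the treatment entered in the sample description differs from the one in the channel names, and the channel names were followed. The arrays held between 1662 and 7119 values, with the fewest on *MINELESS* replicas 3 and 2. The median of each array lay between -0.02 and 0.02.

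Over the 32 probes, the median of the mean log2 ratios was 0.45 in *MINELESS* and 1.17 in wild-type seedlings. Over all 1747 tested probes it was -0.02 in *MINELESS* and -0.02 in wild-type. The *MINELESS* mean of a member ran from -0.38 to 0.99 and its wild-type mean from 0.71 to 2.97. Expressed as a share of the wild-type log2 ratio, the *MINELESS* log2 ratio had a median of 39.0%, with quartiles of 33.0% and 44.2%. The members are numbered here by their wild-type mean, from member 1 with the highest to member 32 with the lowest.

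The wild-type part of the rule alone was met by 153 probes, so 20.9% of the probes induced in wild-type seedlings met the *MINELESS* limits too. The other 121 had a median log2 ratio of 1.06 in *MINELESS* and 1.28 in wild-type. Their wild-type induction was therefore much like that of the members, while the *MINELESS* share had a median of 76.0% and ran from 35.9% to 168%. The members were the low end of a continuous range and not a separate cloud. In all, 21 of the 121 probes kept under 60% of the wild-type ratio. Just inside the limit, member 22 had means of 0.43 in *MINELESS* and 0.87 in wild-type (49.9%). Just outside it, a probe had 0.45 in *MINELESS* and 0.90 in wild-type (50.3%).

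The limit of 1 kept out 3 probes that met all else. Their means were 1.21 in *MINELESS* and 2.98 in wild-type, 1.01 in *MINELESS* and 2.80 in wild-type, and 1.08 in *MINELESS* and 2.28 in wild-type. At the lower edge of wild-type induction, the last member had 0.71, and the nearest outside probe that met the rest of the rule had 0.69, with *MINELESS* means of -0.38 and 0.19. Only 1 probe with a sufficient wild-type mean was lost because a wild-type value lay at or below 0, and it would not have met the *MINELESS* limits.

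In the limma fit over all tested probes, a response counted as called where the adjusted *P* was under 0.05 and the log2 ratio was further than 0.5 from 0. All 32 members were called higher in wild-type seedlings, where 11.8% of the tested probes were. In *MINELESS* seedlings 11 members were called higher and 0 lower, with 8.36% and 2.29% of the tested probes called in these directions. The other 21 members did not pass in *MINELESS*, and 10 of these had all their *MINELESS* values above 0. Both counts follow from the limits of the rule, and nothing is read from them. The *MINELESS* count also rested on single arrays, being 2 without *MINELESS* replica 1, 4 without replica 4, 5 without replica 2 and 7 without wild-type replica 2.

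The 7 most strongly induced members had wild-type means of 1.56 or higher, and on all 7 the highest *MINELESS* array lay below the lowest wild-type array. This was so on 4.06% of the tested probes, and the rule, which set the means apart, fixed it in part. Their *MINELESS* means lay between 0.54 and 0.99, or 33.0% to 46.5% of wild-type. On every *MINELESS* array with a value the ratio was above 0. In *MINELESS*, 6 of the 7 were called higher (8.36% of the tested probes), a count that the limits of the rule shaped.

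Member 1, Narc8_25056, had the highest wild-type mean and, of the 32, the means furthest apart. Its log2 ratios were 0.67, 0.55, 0.57 and 2.20 on *MINELESS* replicas 1 to 4 and 2.81, 3.07, 3.06 and 2.94 on wild-type replicas 1 to 4. The wild-type arrays were almost alike, while *MINELESS* replica 4 stood far above the other *MINELESS* arrays and still below every wild-type array. The means were 0.99 ± 0.80 in *MINELESS* and 2.97 ± 0.12 in wild-type (SD, n = 4 each), which is a 1.99-fold ratio of challenged to control in *MINELESS* and a 7.83-fold ratio in wild-type. Without replica 4 the *MINELESS* mean was 0.59. With all arrays the *MINELESS* mean sat just under the limit of 1.

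Member 2 owed much of its wild-type mean to 1 array. It had 0.82, 1.05, 0.78 and 0.63 on *MINELESS* replicas 1 to 4, against 1.96, 1.66, 1.48 and 3.55 on wild-type replicas 1 to 4. The *MINELESS* arrays lay close together, and wild-type replica 4 was far above the rest. Without that replica the wild-type mean was 1.70 and not 2.16.

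Member 3 was the most even of the strong members. Its ratios were 1.04, 0.95 and 0.88 on *MINELESS* replicas 1, 3 and 4, where replica 2 was empty, and 2.00, 1.93, 2.15 and 2.24 on the wild-type replicas. Both genotypes had a small spread, with 0.96 ± 0.08 in *MINELESS* (SD, n = 3) and 2.08 ± 0.14 in wild-type (SD, n = 4). In fold terms, challenged over control was 1.94 in *MINELESS* and 4.23 in wild-type.

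Members 4, 5 and 6 each lacked a value on *MINELESS* replica 3. Member 4 had 1.39, 0.10 and 1.28 on *MINELESS* replicas 1, 2 and 4 and 1.47, 2.54, 2.05 and 1.85 on the wild-type replicas, so its low *MINELESS* mean came from replica 2. Member 5 had 1.095, 0.439 and 0.858 on these *MINELESS* arrays and 1.715, 1.878, 2.023 and 1.827 on the wild-type arrays, with *MINELESS* replica 2 again the lowest. Member 6 differed from both in that replica 4 was the highest *MINELESS* array. It had 0.40, 0.33 and 0.89 in *MINELESS* and 1.42, 2.10, 1.85 and 1.16 in wild-type, and among the strongest 7 it was the one member not called in *MINELESS* (adjusted *P* = 0.0986, limma).

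Member 7 had values on all arrays. Its ratios were 0.48, 0.58, 0.27 and 0.95 on *MINELESS* replicas 1 to 4 and 1.09, 1.72, 1.64 and 1.78 on wild-type replicas 1 to 4. The nearest arrays of the genotypes, *MINELESS* replica 4 and wild-type replica 1, were close, while the others lay well apart. The means were 0.57 ± 0.28 in *MINELESS* and 1.56 ± 0.32 in wild-type (SD, n = 4 each).

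The next 13 members had wild-type means from 1.04 to 1.47 and *MINELESS* means from 0.32 to 0.65. In fold terms, challenged over control ran from 1.25 to 1.57 in *MINELESS* and from 2.05 to 2.77 in wild-type. On 7 of the 13 every *MINELESS* array lay below every wild-type array (4.06% of the tested probes), 5 were called higher in *MINELESS* (8.36% of the tested probes), and 3 had a *MINELESS* value below 0. Over all 32 members, 11 had such a value, where 79.7% of the tested probes did. Member 14 had the smallest *MINELESS* share of this group, 29.0%. It had 0.41, 0.47 and 0.23 on *MINELESS* replicas 2 to 4 and 0.92, 1.29 and 1.62 on wild-type replicas 1, 2 and 4, and its genotypes did not overlap. Member 20 was close to it with 30.5%, from 0.63, 0.04, 0.26 and 0.33 on the *MINELESS* replicas and 1.07, 0.80, 1.21 and 1.07 on the wild-type replicas. Here wild-type varied little and the *MINELESS* ratio was near 0 on replica 2.

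On members 8 and 9, wild-type replica 4 stood far above the other wild-type arrays. Member 8 had 0.92, -0.07, 0.50 and 0.84 on the *MINELESS* replicas and 1.230, 1.198, 1.099 and 2.345 on the wild-type replicas. Member 9 had 0.55, 0.70, 0.24 and 1.13 on the *MINELESS* replicas and 1.30, 1.36, 0.85 and 2.34 on the wild-type replicas. Leaving out wild-type replica 4 brought their wild-type means to 1.18 and 1.17. For member 8 the arrays still did not overlap, but for member 9 *MINELESS* replica 4 exceeded wild-type replica 3.

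Another pattern within this group was a high *MINELESS* replica 4 on a probe with a modest response. On member 16 it had 0.95, against 0.20, 0.39 and 0.64 on *MINELESS* replicas 1 to 3 and 0.85, 1.36, 0.80 and 1.67 on the wild-type replicas. Member 18 was the reverse, with *MINELESS* replicas 2 and 3 high (0.86 and 0.88) and replicas 1 and 4 low (0.23 and 0.17), and its wild-type ratios were 0.71 on replica 1 and between 1.11 and 1.27 on the other replicas. The genotypes overlapped on both probes. Member 18 kept 49.7% of the wild-type ratio and stayed a member in 3 of the 8 repeats of the rule that left out an array.

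On members 10, 11 and 12 the genotypes did not overlap. Member 10 had 0.32, 0.56 and 0.66 on *MINELESS* replicas 1, 3 and 4, against 1.02, 1.64, 1.84 and 1.17 on the wild-type replicas. Member 11 had 0.46, 0.50 and 0.82 on *MINELESS* replicas 1, 2 and 4, against 0.87, 1.48, 1.59 and 1.45 on the wild-type replicas. For both, wild-type replica 1 was the wild-type array nearest to *MINELESS*, and on member 11 the gap to *MINELESS* replica 4 was only 0.05. Member 12 also had wild-type replica 1 as its lowest wild-type array, at 0.88, just above *MINELESS* replica 2 at 0.84.

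Members 13, 15 and 19 overlapped through different arrays. On member 13 the *MINELESS* values were 0.95, 0.10 and 0.36 on replicas 1, 2 and 4, and replica 1 exceeded the lowest wild-type array, which was replica 3 at 0.89. On member 15 it was *MINELESS* replica 2, at 0.89, that exceeded wild-type replica 1, at 0.88. Member 19 was the least regular of the 3, with 0.42, -0.15 and 1.04 on *MINELESS* replicas 1, 3 and 4 and 0.71, 0.95, 1.73 and 0.82 on the wild-type replicas. There, *MINELESS* replica 4 lay above all wild-type arrays but replica 3.

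The 12 weakest members had wild-type means between 0.71 and 0.89 and *MINELESS* means between -0.38 and 0.43. None was called higher in *MINELESS* (8.36% of the tested probes), 8 had at least 1 *MINELESS* value below 0, and on 3 the genotypes did not overlap (4.06%). Member 28 was the most even of these. It had 0.32, 0.32, 0.17 and 0.42 on *MINELESS* replicas 1 to 4 and 0.46, 0.77, 0.71 and 1.11 on wild-type replicas 1 to 4, a small but regular response that did not overlap between the genotypes.

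Member 21 headed these by its wild-type mean, which leaned on 1 array. It had 0.35, -0.07, 0.28 and 0.90 on the *MINELESS* replicas and 0.59, 0.82, 0.54 and 1.63 on the wild-type replicas, so replica 4 was the highest array in both genotypes. The same held on members 25, 26, 30 and 31, where replica 4 had 0.54, 0.55, 0.97 and 0.44 in *MINELESS* and 1.41, 1.32, 1.21 and 0.97 in wild-type. Members 22 and 24 had genotypes that did not overlap, by gaps of 0.05 and 0.02. On member 23 replica 4 was the highest *MINELESS* array, at 0.69, and wild-type replica 3 the lowest wild-type array, at 0.58.

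Several of the weak members had *MINELESS* arrays of opposite sign. Member 27 had 0.82 and 0.83 on *MINELESS* replicas 1 and 4 but -0.35 and -0.29 on replicas 2 and 3, against 0.35, 0.89, 0.69 and 1.13 on the wild-type replicas. Member 29 had -0.41, 0.60, -0.05 and 0.70 on the *MINELESS* replicas and 0.17, 0.37, 1.69 and 0.74 on the wild-type replicas. For both, the *MINELESS* mean near 0.2 stands for arrays that did not move together, and on member 29 wild-type replica 3 carried the wild-type mean.

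Member 32, Narc8_20831, was the only one with a *MINELESS* mean below 0. Its ratios were -0.69, -0.67 and 0.21 on *MINELESS* replicas 1, 3 and 4 and 0.59, 0.03, 1.66 and 0.57 on wild-type replicas 1 to 4. The *MINELESS* arrays disagreed in sign, and wild-type replica 2 was close to 0 while replica 3 was far above the rest. The means were -0.38 ± 0.51 in *MINELESS* (SD, n = 3) and 0.71 ± 0.69 in wild-type (SD, n = 4), and the *MINELESS* response did not pass the test (adjusted *P* = 0.203, limma). No member was therefore called lower in challenged than in control *MINELESS* seedlings.

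For the difference between the genotypes, *MINELESS* minus wild-type, the adjusted *P* had to be under 0.05 and the log2 difference further than 0.4 from 0. This called 4 of the 32 members as lower and 0 as higher in *MINELESS*, where 0.63% and 0.401% of the tested probes were called. At an unadjusted *P* under 0.05, 27 of the 32 were lower in *MINELESS*, with 5.78% of the tested probes. The rule used the same contrast, so nothing is read from these shares. The 4 were member 1 with a difference of -1.97 (SE 0.29, adjusted *P* = 0.00543), member 3 with -1.14 (SE 0.19, adjusted *P* = 0.0182), member 5 with -1.04 (SE 0.21, adjusted *P* = 0.0387) and member 7 with -0.99 (SE 0.21, adjusted *P* = 0.0387), all from limma. The other 28 did not pass, and member 2, second in the size of its difference (-1.34), had a wide wild-type spread and an adjusted *P* of 0.0807. The count of 4 depended on the fit. It was 8 with array weights, 13 with a replicate block in place of the dye term and 2 after every array was brought to an equal spread. The calls over all tested probes moved as well. Those called lower were 11 in the main fit, 17 with array weights, 26 with the block and 5 after scaling to an equal spread. After this scaling, member 1 stayed called, while members 3, 5 and 7 had adjusted *P* values of 0.0722, 0.117 and 0.0557 in limma. The count of 4 also rested on single arrays. It was 0 without *MINELESS* replica 1, *MINELESS* replica 3 or wild-type replica 2, where limma gave 171, 139 and 147 of the tested probes an unadjusted *P* under 0.05. Leaving out *MINELESS* replica 4 or wild-type replica 1 brought it to 1. It was 2 without *MINELESS* replica 2, 8 without wild-type replica 4 and 9 without wild-type replica 3. Of all tested probes, 5, 16 and 19 were called lower in these fits.

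On 17 members every *MINELESS* value lay below every wild-type value (4.06% of the tested probes), and on 15 the genotypes overlapped. The separation held on 16 of the 121 other induced probes.

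The arrays of 1 genotype were also ordered among themselves. The rule used all these values, and a limit on means can favour probes with 1 high wild-type or 1 low *MINELESS* array, so the order is partly set by the choice. Without wild-type replica 4, 11 of the 32 members no longer met the rule, the most for any array. On the 18 members with values on all 8 arrays, *MINELESS* replica 4 was the highest *MINELESS* array on 12 (66.7%). It was the highest on 32.9% of the other induced probes and 30.5% of the tested probes with all values. Its median over the members was 0.70, while the other *MINELESS* arrays had medians from 0.27 to 0.40. On the other induced probes the *MINELESS* medians lay closer together, at 1.06, 1.09, 0.98 and 1.13 for replicas 1 to 4. Members share arrays and are not independent, so these are descriptions.

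The wild-type arrays also had an order. Replica 4 was the highest on 12 of these 18 members (66.7%), against 52.4% of the other induced probes and 29.8% of the tested ones. Replica 1 was the lowest on 11 (61.1%), against 46.3% and 26.0%. The medians over the members were 0.86, 1.27, 1.15 and 1.28 for wild-type replicas 1 to 4. The most weakly responding wild-type array thus lay near the most strongly responding *MINELESS* array, 0.86 against 0.70 for *MINELESS* replica 4.

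The dye was balanced over the arrays. In each genotype, challenged RNA carried Cy5 in replicas 1 and 2 and Cy3 in replicas 3 and 4. The dye effect, a coefficient that is above 0 where ratios were higher with challenged RNA in Cy5, was below 0 on 28 of the 32 members (87.5%). It was below 0 on 68.6% of the other induced probes and 48.5% of the tested ones. Its median was -0.10 on the members, -0.04 on the other induced probes and 0.00 on the tested ones. The coefficient sets replicas 1 and 2 against replicas 3 and 4. Over the members, the Cy3 arrays, replicas 3 and 4, had medians of 0.27 and 0.70 in *MINELESS* and 1.15 and 1.28 in wild-type. The Cy5 arrays, replicas 1 and 2, had medians of 0.40 and 0.39 in *MINELESS* and 0.86 and 1.27 in wild-type. Whether the dye or single arrays set the sign of the coefficient was not tested. For single probes no dye effect passed an adjusted *P* of 0.05 in limma (lowest 0.992), with 1 member and 36 of the tested probes (2.06%) at an unadjusted *P* under 0.05.

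Spread between replicas was similar in members and in the other induced probes. The median SD of the members was 0.31 in *MINELESS* and 0.36 in wild-type, and that of the other induced probes 0.33 in *MINELESS* and 0.33 in wild-type. Over the tested probes it was 0.25 in *MINELESS* and 0.26 in wild-type. Empty cells fell almost wholly on the *MINELESS* arrays, with 14 there and 1 in wild-type, and 11 of the 14 were on *MINELESS* replicas 2 and 3. This was not particular to the members. The other induced probes had 37 empty cells in *MINELESS* and 6 in wild-type, and the tested probes 657 and 131. The members with a full set of values were 18 of 32 (56.2%), close to the 60.4% of the tested probes.

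To see chosen probes on an array that took no part in choosing them, the rule was applied without each array in turn to the same 1747 probes. The sets chosen this way differ from the 32 members. Without wild-type replica 1, for example, 22 of the 54 chosen probes were not members. The medians set beside the unused array come from arrays that the rule did use, so they are partly fixed by the choice. Without *MINELESS* replica 1, the 29 chosen probes with a value on it had a median of 0.48 there, against 0.42 on the other *MINELESS* arrays and 1.16 in wild-type. Without *MINELESS* replica 3, 24 probes had 0.49 on it, against 0.39 on the other *MINELESS* arrays and 1.04 in wild-type. On both of these arrays, the median of the probes chosen elsewhere stayed near the low *MINELESS* ratio. Single probes varied, and 13 of the 29 and 9 of the 24 still had at least 0.5 times the wild-type mean there.

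*MINELESS* replicas 2 and 4 lay between. The 25 probes chosen without replica 2 had a median of 0.70 on it, against 0.42 on the other *MINELESS* arrays and 1.16 in wild-type. The 40 probes chosen without replica 4 had 0.77 on it, against 0.38 on the other *MINELESS* arrays and 1.11 in wild-type. On replica 4, 22 of these 40 were nearer to the wild-type mean than to the *MINELESS* one, compared with 7 of 29, 7 of 25 and 4 of 24 on *MINELESS* replicas 1 to 3.

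Among the wild-type arrays, replica 4 had the highest median, 1.17 on 27 probes chosen without it. These had 0.47 in *MINELESS* and 1.18 on the other wild-type arrays. Replica 4 was also the array with the widest log2 ratios over the probes with all values. Its SD was 0.871, against 0.494 to 0.649 on the other 7 arrays. Whether this spread set its high median was not tested. Replica 2 had 0.87 on 37 probes, against 0.37 in *MINELESS* and 1.01 on the other wild-type arrays. Replica 3 had 0.74 on 36 probes, against 0.39 in *MINELESS* and 0.98 on the other wild-type arrays. Replica 1 fell short of them, with 0.58 on 54 probes, against 0.41 in *MINELESS* and 0.99 on the other wild-type arrays, and 37 of the 54 were nearer to the *MINELESS* mean. On all 8 arrays the probes chosen elsewhere lay at or between the medians of the genotypes, so the gap on an unused array was smaller than the gap the rule selected, except on wild-type replica 4, where it was about as wide.

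Membership itself was only partly stable. Of the 32 members, 11 met the rule in all 8 repeats with an array left out, 7 in 7, 6 in 6, 6 in 5, 1 in 4 and 1 in 3. Members 2, 3, 6 and 7 were among the 11, and member 1 met it in 5. The count of probes chosen was 54 without wild-type replica 1 and lay between 27 and 42 without any of the others. When the arrays were scaled to the same spread, 16 probes met the rule, and all 16 were among the 32. The SD of the log2 ratios over the 1056 probes with all values was 0.871 on wild-type replica 4, while the other 7 arrays lay between 0.494 and 0.649. How far this spread bears on the choice of the other 16 was not tested.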

How the data were processed

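For each genotype, 4 biological replicas of *MINELESS* or wild-type seedlings were hybridized as challenged against control RNA on a dual-colour *Arabidopsis* oligonucleotide array. The authors deposited log2 ratios, made in R 2.10.1 with limma by log transformation and print tip-loess within each array, without background subtraction, with replicate spots averaged and genes of strong dye bias removed. The sources used here give neither the threshold of that removal nor the reason why some cells are empty. Loess assumes that most probes do not change, and without background subtraction ratios of dim spots are drawn towards 0. Signal over background is unknown, and the number of arrays limits the precision.

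No further normalization was applied. The 1747 probes with at most 1 empty array in either genotype entered limma 3.58.1 (R 4.3.3). Each probe's model held 2 genotype means and its own dye term, variances were moderated by empirical Bayes, and *P* values were adjusted by Benjamini-Hochberg over all tested probes. The fit was also run on simulated data with independent noise of equal spread on all arrays. That run cannot show how the fit handles the unequal arrays of these data. Plain means and SDs are over the arrays with a value. All 8 arrays were used.

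The members, thresholds and lists were chosen with earlier results of these data known. Identifiers were to be printed only for the member with the highest wild-type mean and the one with the lowest *MINELESS* mean. Lists of jasmonate, tryptophan, glucosinolate, salicylate, ethylene and cell type genes had been drawn up, but probes could not be matched to genes here, so these lists give no result. The alternatives were other limits of the rule, medians, no dye term, centring, scaling, array weights, robust moderation, complete probes, each array left out and a replicate block. Same-numbered arrays were checked for shared deviations.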

Additional observations from a re-analysis of the deposited data

Results flagged for a closer look

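Of 49 groups of 4 arrays examined among the members, 3 held an array far from the others by Dixon's ratio, where chance gives about 1 in 20. They were member 1 in *MINELESS*, with a log2 ratio of 2.20 on replica 4, member 8 in wild-type, with 2.35 on replica 4, and member 17 in wild-type, with 0.83 on replica 1, against a range of 1.24 to 1.31 on wild-type replicas 2 to 4.

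The response differed between the genotypes, by limma's test of the difference, on 4 members. Their log2 differences, *MINELESS* minus wild-type, were -1.97 (member 1), -1.14 (member 3), -1.04 (member 5) and -0.99 (member 7). The rule used the same contrast, so these tests are not separate support.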

How the results depend on the processing

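The number of members, 32, was 55 with a wild-type mean of 0.5 or higher, 20 with 1 or higher, 16 with *MINELESS* below 0.4 times the wild-type mean, 18 with values on all arrays and 16 with the arrays scaled. With each array left out it lay between 27 and 54, the highest without wild-type replica 1. With medians it was 34, of which 25 were members. Dye-adjusted means, centring and a limit of 0.6 times stayed within 1.5 times. The median difference over the members, -0.73, and their median *MINELESS* ratio, 0.45, moved by less than the spread between arrays under each alternative run. The same 32 members were kept in these runs, and the rule had in part set both medians, so this is not read as stability.

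Over all tested probes, limma called the response of 186 in *MINELESS* and of 328 in wild-type, and it called 18 differences. Testing only the 1056 probes without an empty array gave 9 for the difference and 209 for wild-type. The difference count was 30 with array weights and 0 to 43 with an array left out. Scaling moved its share of probes higher in *MINELESS* from 38.9% to 66.7%, and left 2 members called for it, of which member 1 was the one among the 4. The 4 called members lost the call in 23 of 58 alternative values, and member 32, not called, gained it in 3 of 14. No sign turned, but the rule fixed the sign.

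A replicate block that replaced the dye term gave 49 probes for the difference, 13 of them members, 196 for *MINELESS* and 336 for wild-type. Arrays that shared a number had deviations from their group means with correlations of 0.220, 0.0216, -0.0980 and 0.0360 for numbers 1 to 4. Of the 4 *MINELESS* arrays, 1 correlated best with its own number. The sample titles give no pairing beyond this number. These few correlations cannot decide whether same-numbered arrays were paired.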
